A study of Mus musculus with 12 samples.

Results

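Jarid1b, listed under its current symbol Kdm5b, was knocked down in mouse embryonic stem cells (ESC), and RNA levels were compared between 3 Jarid1b knockdown arrays and 3 control arrays. The cells were the feeder-independent ES line E14TG2a.4, grown on gelatin in medium with serum and LIF, the cytokine that holds mouse ESC in the pluripotent state. Both groups were transduced with pLKO.1 lentivirus for 16 h and selected in puromycin from 48 h after transduction. The control virus encoded a scrambled short hairpin RNA (shRNA) and the other an shRNA against Jarid1b. The labels name 1 Jarid1b shRNA, so an effect of the hairpin on other transcripts cannot be told apart from the loss of Kdm5b. The series has 12 arrays. The other 6 are of neural progenitor cells (NPC), made from such ESC with the same constructs, 3 with the scrambled and 3 with the Jarid1b shRNA, and are used below as a comparison. Of 21212 probe sets on the array, 18786 had exactly 1 gene symbol, and the probe set with the highest mean was kept for each gene, which gave 18784 genes. All of them are members of the comparison, and no expression change entered their choice.

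Kdm5b belongs to the Jumonji family of histone demethylases and demethylates lysine 4 of histone H3 (H3K4), a residue whose trimethylated form lies at the promoters of active and poised genes. Methyltransferases of the Set1 and MLL (COMPASS) complexes add methyl groups to H3K4, and the KDM5 and KDM1 families each remove some of its methylated forms. Kdm5b is expressed in ESC. Pluripotent cells in culture range from a naive state, held by LIF, to formative and primed states that resemble the postimplantation epiblast. FGF and Nodal signals drive these later states.

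Values are log2 expression levels from robust multi-array averaging (RMA), and a difference of 1 is 2-fold. Below, genes rose or fell, and were called, where limma's moderated test of knockdown minus control gave an adjusted p under 0.05 (Benjamini-Hochberg over 18784 genes, fit to all 12 arrays). Whether the 3 arrays of a group stem from independent transductions is not stated, and each p reflects array-to-array spread alone, part or all of which may be technical. Control replicate 1 stood apart from the other control arrays. Across genes it correlated with control replicates 2 and 3 at 0.9919 and 0.9931 and with knockdown replicate 1 at 0.9932, whereas control replicates 2 and 3 correlated at 0.9961 and pairs of knockdown arrays at 0.9957 to 0.9967. On the first principal component of the 6 ESC arrays, which held 49.3% of the variance, the control arrays lay at -3.92, -18.47 and -26.84 and the knockdown arrays at 13.51, 17.06 and 18.67. The second component (22.3%) set control replicate 1, at 24.86, against the rest. Calls therefore follow with and without it, and calls lost on leaving out a single ESC array are named, with the adjusted p that this left in brackets. For single genes and lists, a single array below means 1 of the 6 ESC arrays. Fits without an NPC array were compared for gene counts only. As arrays measure the RNA of a whole culture, fewer cells with a transcript and less of it per cell cannot be told apart.

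Kdm5b (Entrez gene 75605) had levels of 12.25, 12.47 and 12.50 in the control arrays and 10.64, 10.90 and 10.50 in the knockdown arrays. The highest knockdown array lay 1.35 below the lowest control array, and the mean difference of -1.73 ± 0.11 (SE, adjusted p = 1.82e-05) was 3.31-fold. It had the smallest p of all genes and kept its call without any single ESC array. Of the other H3K4 demethylases only Kdm1b, an FAD-dependent enzyme, fell (-0.47 ± 0.10 SE, adjusted p = 0.0193), with levels of 8.65, 8.85 and 8.90 in the control arrays and 8.33, 8.40 and 8.27 in the knockdown arrays. The groups did not overlap, yet Kdm1b (0.0531 to 0.109) lost the call without control replicate 2 or 3 or knockdown replicate 1 or 3. Kdm5c, the X-linked paralog, had a difference of -0.22 ± 0.085 (SE) and Kdm5a one of -0.12 ± 0.11. The Y-linked Kdm5d had 0.27 ± 0.11 from a control mean of 5.03, below the lower quartile of every array (5.84 to 6.11). Neither these 3 nor Kdm1a passed the test. Of 15 measured H3K4 methyltransferase and COMPASS genes 0 passed in limma's test (2 at an unadjusted p under 0.05), and the smallest p there was that of Setd7 (-0.31 ± 0.12 SE, adjusted p = 0.188).

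**Figure D1:**
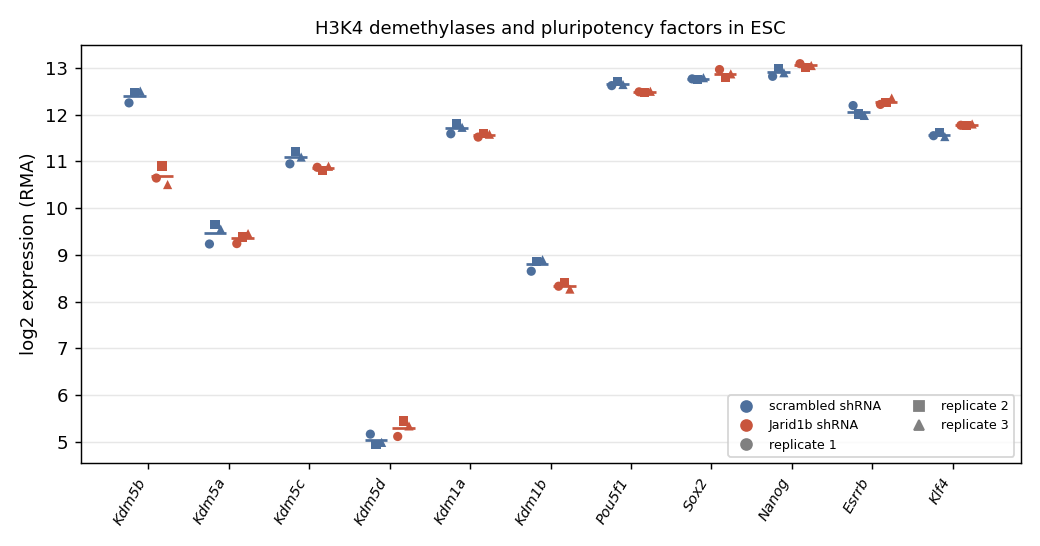
Log2 expression (y axis) of H3K4 demethylase and pluripotency genes in the 3 scrambled control and 3 Jarid1b knockdown ESC arrays. Each point is 1 array, its shape gives the replicate number and each line the group mean. Kdm5b is at 12.25 to 12.50 in control and 10.50 to 10.90 in knockdown arrays, while the other genes differ by under 0.5.

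The pluripotency network stayed at a high level in knockdown ESC. Pou5f1, the gene of the POU factor Oct4, had levels of 12.62, 12.71 and 12.64 in the control arrays and 12.49, 12.47 and 12.50 in the knockdown arrays. Nanog, a homeodomain factor of naive cells, had 12.82, 12.99 and 12.89 in the control arrays and 13.09, 13.02 and 13.05 in the knockdown arrays. Sox2, the partner of Oct4, had 12.76, 12.76 and 12.79 in the control arrays and 12.96, 12.80 and 12.87 in the knockdown arrays. For each of these 3 genes the groups did not overlap but lay close together, Pou5f1 lower and Nanog and Sox2 higher in the knockdown. The differences were -0.17 ± 0.25 (SE, adjusted p = 0.769), 0.15 ± 0.52 (SE, adjusted p = 0.913) and 0.11 ± 0.10 (SE, adjusted p = 0.627). These SEs pool the spread of all 4 groups. Nanog had an SD of 0.085 in control and 0.037 in knockdown ESC but 1.03 and 1.21 in the NPC groups, and for Pou5f1 0.0455 and 0.0151 against 0.364 and 0.648. Fitted on the 6 ESC arrays alone, neither passed (adjusted p = 0.403 for Nanog and 0.303 for Pou5f1). Of 8 pluripotent cell markers 0 passed in limma's test (0 at an unadjusted p under 0.05), with mean log2 levels of 12.58 to 12.61 in the control arrays and 12.64 to 12.69 in the knockdown arrays.

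In all, 979 genes passed, which is 5.21% of those tested. Of these 346 rose (1.84%) and 633 fell (3.37%). An unadjusted p under 0.05 was found for 3603 genes. A change of at least 2-fold accompanied 100 of the calls (0.532% of genes), 25 rises and 75 falls. Groups did not overlap for 4548 genes (24.2%), 1992 with the knockdown higher and 2556 with it lower. Without control replicate 1, 592 genes rose (3.15%) and 944 fell (5.03%), and 869 of the 979 calls remained, each with the same sign. Control replicate 1 was the control array nearest to the knockdown arrays for 379 of the 633 genes that fell and for 207 of the 346 that rose. The count of calls depended on single arrays in the other direction as well: without control replicate 3, 59 genes rose and 134 fell, and without knockdown replicate 3, 85 and 198. Without control replicate 2 the counts were 201 and 420, and without knockdown replicates 1 and 2 they were 215 and 418, and 180 and 292.

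Most changes were below 2-fold. The median change was -0.55 among genes that fell, with quartiles at -0.79 and -0.44, and 0.53 among genes that rose, with quartiles at 0.43 and 0.71, against a median of 0.02 over all genes. Calls were rare among weakly expressed genes. Of 4580 genes with a mean under 6 in the ESC control arrays, near the lower quartile of the arrays, 0.371% rose and 0.328% fell. Of 5123 genes with a control mean from 8 to 10, 3.01% rose and 5.88% fell. Above 10, 1.84% of 3703 genes rose and 4.70% fell. The control levels also enter the difference, so the balance of rises and falls cannot be compared between these bins. Upstream sequence from RefSeq (GRCm38.p6) was at hand for 15059 of the genes. CpG dinucleotides were counted in the 250 bases upstream of the start site. Where a gene had several start sites, the largest count was used. The median count was 15 for the 278 genes that rose, 16 for the 493 that fell and 12 for the others. The 2 called sets were alike in this, and their quartiles (8 to 22 and 9 to 24) overlapped those of the genes not called (4 to 21). The called and uncalled genes were not matched for expression level.

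**Figure D2:**
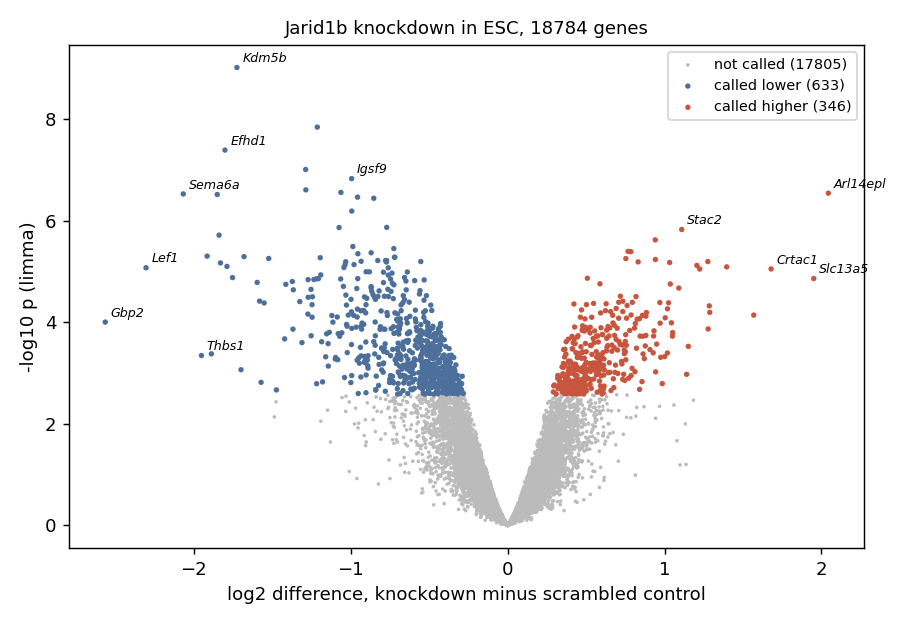
Log2 difference, knockdown minus scrambled control, in ESC (x axis) against -log10 of limma's unadjusted p (y axis), 1 point per gene. Genes called lower (633) and higher (346) at an adjusted p under 0.05 are coloured, and falls outnumber rises also among changes beyond 1 log2 unit (75 against 25).

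The 20 largest falls included signalling, guidance and membrane genes. Lef1, a transcription factor that acts with beta-catenin in the Wnt pathway, had levels of 8.99, 10.24 and 10.36 in the control arrays and 7.21, 8.07 and 7.39 in the knockdown arrays. Sema6a, a transmembrane semaphorin that guides growing axons, had 9.16, 9.49 and 9.91 in the control arrays and 7.61, 7.82 and 6.93 in the knockdown arrays. The groups stood 0.92 apart in Lef1 and 1.34 apart in Sema6a. The differences were -2.30 ± 0.32 (SE, adjusted p = 0.00313) and -2.07 ± 0.21 (SE, adjusted p = 0.000568). Efhd1, a calcium-binding protein of mitochondria, had 9.74, 10.19 and 9.87 in the control arrays and 7.90, 8.07 and 8.42 in the knockdown arrays, a difference of -1.80 ± 0.16 (SE, adjusted p = 0.000256) and one of the smallest p of all genes. Kcnj3, a channel subunit of the G-protein-gated inward rectifiers, had 8.99, 9.89 and 10.23 in the control arrays and 7.84, 7.91 and 7.87 in the knockdown arrays. Its 3 knockdown arrays lay within 0.063 of each other and at least 1.09 below all controls (-1.83 ± 0.25 SE, adjusted p = 0.00298). Fndc3c1, a fibronectin type III domain gene on the X chromosome, fell by 1.91 ± 0.26 (SE, adjusted p = 0.00298) on the log2 scale, Gabra3, a GABA-A receptor subunit, by 1.58 ± 0.26 (SE, adjusted p = 0.00620), and St6gal2, a sialyltransferase, by 1.60 ± 0.24 (SE, adjusted p = 0.00406). Rsph4a, a radial spoke protein of motile cilia, had 8.04, 9.04 and 9.03 in the control arrays and 6.86, 7.28 and 6.93 in the knockdown arrays (-1.68 ± 0.22 SE, adjusted p = 0.00298). Cdh9, a type II cadherin, had 6.08, 7.53 and 7.01 in the control arrays and 5.36, 5.29 and 5.31 in the knockdown arrays, where the knockdown values lie below the lower quartile of the arrays, so its size of -1.55 ± 0.26 (SE, adjusted p = 0.00628) is rough. All the falls named in this paragraph held without any single ESC array. By smallest p rather than size, Plpp2, a lipid phosphatase gene, (-1.21 ± 0.10 SE, adjusted p = 0.000135) and Eef1akmt1, a lysine methyltransferase of an elongation factor, (-1.29 ± 0.12 SE, adjusted p = 0.000462) ranked next to Kdm5b and Efhd1. Both were named after their values were seen and held without any single ESC array.

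The largest rises were those of Arl14epl and Slc13a5. Arl14epl, whose name marks it as similar to an effector of the GTPase ARL14, had levels of 9.66, 9.15 and 8.91 in the control arrays and 10.83, 11.52 and 11.50 in the knockdown arrays. Slc13a5, a citrate transporter of the plasma membrane, had 7.99, 7.38 and 7.696 in the control arrays and 8.92, 9.72 and 10.28 in the knockdown arrays. The groups stood 1.17 and 0.93 apart, and knockdown replicate 1 was the lowest of the 3 in both genes. The differences were 2.04 ± 0.21 (SE, adjusted p = 0.000568) and 1.95 ± 0.29 (SE, adjusted p = 0.00383). Crtac1, a secreted matrix protein, had 8.44, 7.58 and 7.66 in the control arrays and 9.33, 9.32 and 10.07 in the knockdown arrays (1.68 ± 0.24 SE, adjusted p = 0.00318). Calb2, which encodes the calcium buffer calretinin, had 8.40, 7.32 and 7.59 in the control arrays and 9.10, 9.06 and 9.86 in the knockdown arrays (1.57 ± 0.27 SE, adjusted p = 0.00826). Control replicate 1 was the highest control for Crtac1 and Calb2, which narrowed the gap between the groups. Pmel, the fibril protein of melanosomes, rose by 1.40 ± 0.20 (SE, adjusted p = 0.00313), Pcsk1n, an inhibitor of a prohormone convertase, by 1.28 ± 0.17 (SE, adjusted p = 0.00298), and Stac2, an adaptor of voltage-gated calcium channels, by 1.11 ± 0.13 (SE, adjusted p = 0.00176). Cacna1h, a T-type calcium channel subunit, rose by 1.04 ± 0.16 (SE, adjusted p = 0.00416), Acsf2, an acyl-CoA synthetase family member, by 1.09 ± 0.17 (SE, adjusted p = 0.00464), and Xaf1, an interferon-inducible promoter of apoptosis, by 1.21 ± 0.17 (SE, adjusted p = 0.00312). Glod5 and Pianp, of which the latter binds an inhibitory receptor of immune cells, rose by 1.29 ± 0.21 (SE, adjusted p = 0.00659) and 1.03 ± 0.14 (SE, adjusted p = 0.00298). These 12 rises held without any single ESC array. Klk1, tissue kallikrein, rose by 1.28 ± 0.24 (SE, adjusted p = 0.0110) from control values of 4.37 to 5.38, below the lower quartile of the arrays, so that its size is rough. Pstpip2, a membrane-curving adaptor, rose by 1.15 ± 0.23 (SE, adjusted p = 0.0157), Kdelr3, a retrieval receptor of the endoplasmic reticulum, by 1.14 ± 0.27 (SE, adjusted p = 0.0303), Plxdc1 by 1.05 ± 0.20 (SE, adjusted p = 0.0117), Pgc, a gastric pepsinogen, by 1.05 ± 0.20 (SE, adjusted p = 0.0122), and Cfp, which encodes the complement regulator properdin, by 1.04 ± 0.19 (SE, adjusted p = 0.00985). Klk1 (0.0573) and Pgc (0.0586) lost the call without knockdown replicate 3, Pstpip2 (0.0910) without control replicate 3, Kdelr3 (0.0681 to 0.143) without control replicate 2 or 3 or knockdown replicate 1 or 3 and Plxdc1 (0.0598 to 0.0648) and Cfp (0.0513 to 0.0558) without control replicate 3 or knockdown replicate 3.

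**Figure D3:**
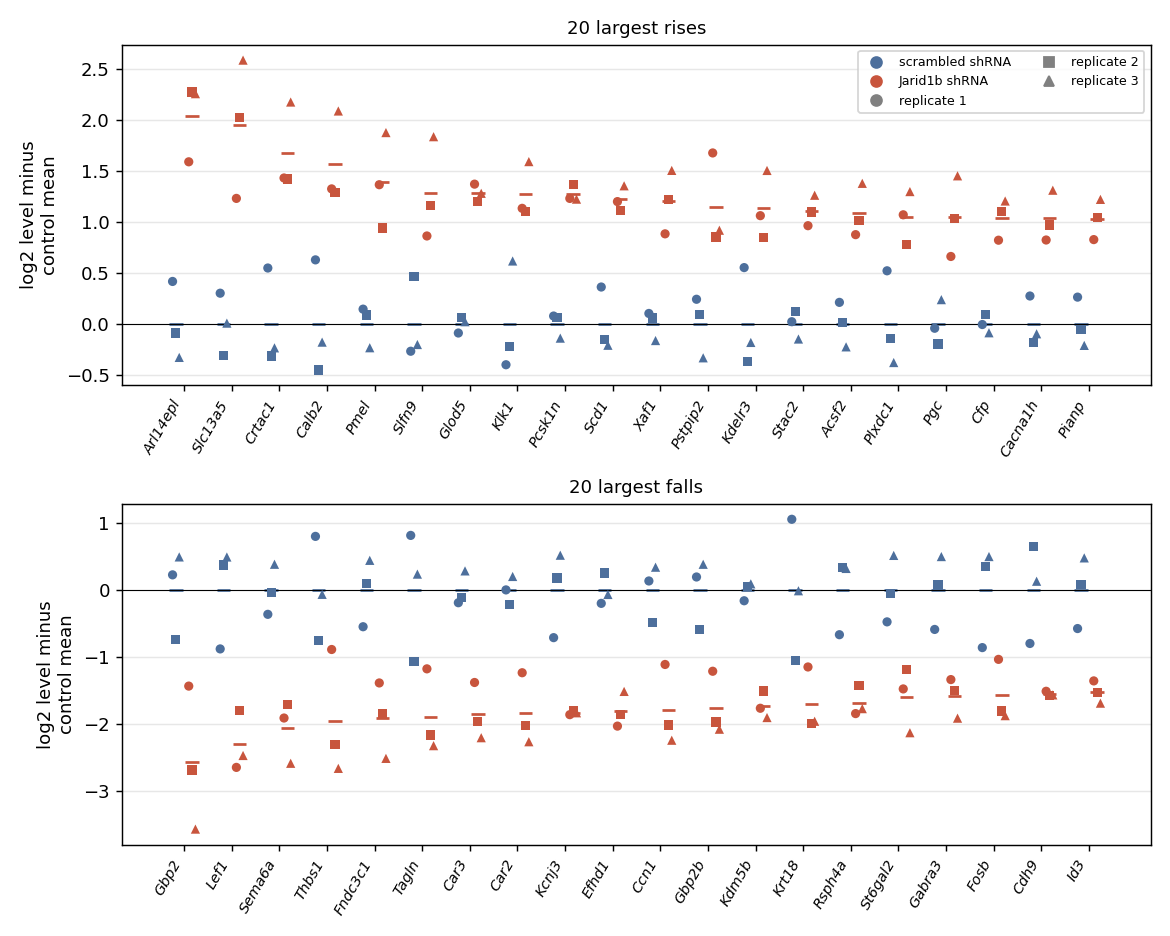
Log2 level of each ESC array minus the mean of the 3 control arrays (y axis) for the 20 largest rises (top) and 20 largest falls (bottom) among named genes whose groups did not overlap. Points are arrays, shapes replicate numbers and short lines group means. Knockdown means run from 1.03 to 2.04 above the control mean and from -1.52 to -2.56 below it, and control replicate 1 lies nearest to the knockdown for many genes, Lef1 and Crtac1 among them.

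In the list of formative and primed pluripotency genes 0 rose and 14 fell of 28 measured members, and the median difference of the list was -0.53, against 0.02 over all genes. Over all genes 1.84% rose and 3.37% fell, and every list count below is to be read beside these shares. Leaving out each array in turn, in the order control replicates 1, 2 and 3 and knockdown replicates 1, 2 and 3 (used for every list below), gave 0, 0, 0, 1, 0 and 0 rising and 16, 12, 8, 12, 12 and 8 falling. Fitted on the 6 ESC arrays alone, without the NPC arrays that share the estimate of spread, 8 of the 28 fell. This list holds genes that earlier results of these data had shown to fall, so its count is not independent evidence. The other lists were also chosen with earlier results of these data known, and the same limit holds for their counts. Besides Lef1, Dnmt3b, a de novo DNA methyltransferase that rises at implantation, had levels of 10.46, 11.25 and 11.21 in the control arrays and 9.72, 9.95 and 9.67 in the knockdown arrays. Control replicate 1 was lowest of the controls and still above all knockdown arrays (-1.19 ± 0.17 SE, adjusted p = 0.00370). Cdh2, the gene of N-cadherin, had 8.90, 8.97 and 9.19 in the control arrays and 8.09, 8.14 and 7.85 in the knockdown arrays (-0.99 ± 0.11 SE, adjusted p = 0.000939). Sall2, a zinc finger factor, had 7.65, 8.17 and 8.54 in the control arrays and 6.78, 7.12 and 6.83 in the knockdown arrays (-1.21 ± 0.18 SE, adjusted p = 0.00383). The groups stood 0.50 apart in Dnmt3b, 0.75 in Cdh2 and 0.53 in Sall2. Sox11, a SoxC transcription factor, fell by 0.77 ± 0.10 (SE, adjusted p = 0.00298) and Tcf15, a basic helix-loop-helix factor of epiblast and somites, by 0.59 ± 0.088 (SE, adjusted p = 0.00391). The tight junction gene Cldn6 fell by 0.96 ± 0.16 (SE, adjusted p = 0.00747). All of these held without any single ESC array. Fgf5, a growth factor that marks the postimplantation epiblast, had 8.33, 9.02 and 9.37 in the control arrays and 7.71, 8.29 and 7.49 in the knockdown arrays. Its 3 controls spanned 1.04, with control replicate 1 lowest, and the gap to the knockdown was 0.040 (-1.08 ± 0.24 SE, adjusted p = 0.0212). Beyond the naming rule, and chosen after their values were seen, the epithelial factor Grhl2 (-1.37 ± 0.26 SE, adjusted p = 0.0110) and the POU factor Pou3f1, also called Oct6, (-0.55 ± 0.11 SE, adjusted p = 0.0138) fell too. The remaining called members were Epha1, Dusp6, Zic5 and Bex1. Fgf5 (0.0646 to 0.112) lost the call without control replicate 2 or 3 or knockdown replicate 1 or 3, Grhl2 (0.0573 to 0.0658), Pou3f1 (0.0641 to 0.0785) and Epha1 (0.0573 to 0.0624) without control replicate 3 or knockdown replicate 3, Zic5 (0.0840 to 0.129) without control replicate 2 or 3 or knockdown replicate 2 or 3 and Bex1 (0.0520 to 0.167) without control replicate 1 or 3 or knockdown replicate 1, 2 or 3. The other members did not pass.

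No naive pluripotency gene fell. 2 rose and 0 fell of 29 members (leaving out each array: 2, 3, 0, 1, 2 and 0 rising and 0, 0, 0, 1, 0 and 0 falling), with a median of 0.11. Of the 29, 18 had a difference above 0 and 11 one below. The lowest was that of Dppa3 (-0.76 ± 0.35 SE, adjusted p = 0.265), which did not pass and whose groups overlapped. Groups did not overlap, with the knockdown higher, for 13 of the 29, against 10.6% of all genes. With the knockdown lower this held for 4 of the 29, against 13.6% of all genes. Tcl1, a coactivator of the kinase Akt, had levels of 10.83, 10.41 and 10.36 in the control arrays and 11.25, 11.16 and 11.44 in the knockdown arrays (0.75 ± 0.15 SE, adjusted p = 0.0142). Pecam1, an adhesion molecule of endothelial cells and of ESC, had 9.49, 9.52 and 9.29 in the control arrays and 10.35, 10.14 and 10.40 in the knockdown arrays (0.86 ± 0.18 SE, adjusted p = 0.0187). All knockdown arrays were above all controls, by 0.33 in Tcl1 and 0.62 in Pecam1. Tcl1 (0.0709 to 0.0850) lost the call without control replicate 3 or knockdown replicate 3 and Pecam1 (0.0566 to 0.101) without control replicate 3 or knockdown replicate 1 or 3. Of 11 measured endothelial and blood markers Pecam1 alone passed, the mean of the list was 6.54 to 6.66 in the control arrays and 6.56 to 6.66 in the knockdown arrays, and Emcn, Ptprc, Hbb-bh1 and Lyz2 lay below the lower quartile of the arrays. In the pathway of LIF and STAT3, whose signal holds the naive state, 0 of 15 genes passed in limma's test (3 at an unadjusted p under 0.05, leaving out each array: 2, 0, 0, 0, 1 and 0 rising). The LIF receptor gene Lifr had the smallest p (0.39 ± 0.11 SE, adjusted p = 0.0576).

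In the Wnt pathway, genes fell among the TCF factors and their targets as well as among ligands and receptors. Of the TCF factor and target list 1 rose and 6 fell of 24 members (median -0.13, leaving out each array: 1, 0, 0, 0, 1 and 0 rising and 6, 5, 2, 2, 4 and 2 falling). With the 6 ESC arrays alone 2 fell and the rise was lost. Myc, the growth-promoting transcription factor, had levels of 10.47, 10.86 and 10.66 in the control arrays and 9.81, 10.02 and 9.82 in the knockdown arrays (-0.78 ± 0.11 SE, adjusted p = 0.00298). Every knockdown array was at least 0.44 below every control. Axin2, a negative-feedback target of the pathway, fell by 0.42 ± 0.10 (SE, adjusted p = 0.0336), the scaffold gene Axin1 by 0.32 ± 0.082 (SE, adjusted p = 0.0399) and the caudal homeobox gene Cdx2 by 0.69 ± 0.16 (SE, adjusted p = 0.0248). Tcf7l2, another TCF factor and named after its value was seen, rose by 0.41 ± 0.11 (SE, adjusted p = 0.0460). Axin2 (0.0706 to 0.177) and Axin1 (0.0732 to 0.127) lost the call without control replicate 2 or 3 or knockdown replicate 1, 2 or 3, Cdx2 (0.0762 to 0.128) without control replicate 3 or knockdown replicate 1 or 3 and Tcf7l2 (0.131 to 0.210) without control replicate 2 or 3 or knockdown replicate 1 or 3. Among ligands, receptors and inhibitors 0 rose and 4 fell of 44 (9.09% called, against 5.21% of all genes, median -0.03, leaving out each array: 2, 0, 0, 1, 0 and 0 rising and 6, 5, 3, 4, 4 and 4 falling). They were the receptors Fzd2 (-0.88 ± 0.13 SE, adjusted p = 0.00341) and Fzd8 (-0.82 ± 0.13 SE, adjusted p = 0.00489), the Wnt secretion factor Wls (-0.998 ± 0.16 SE, adjusted p = 0.00590) and the ligand Wnt5a (-0.90 ± 0.18 SE, adjusted p = 0.0142). Wnt5a (0.0586 to 0.0855) lost the call without control replicate 3 or knockdown replicate 3. The letters CTTTGA of a TCF site, on either strand, occur in the 250 upstream bases of 14.8% of genes. They occurred in 1 of the 5 called TCF list members with upstream sequence, Lef1.

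Some genes of the FGF, Nodal and BMP pathways fell as well. In the FGF and ERK list 0 rose and 6 fell of 27 members (median -0.25, leaving out each array: 0, 0, 0, 1, 0 and 0 rising and 8, 4, 2, 6, 3 and 2 falling). With the 6 ESC arrays alone 3 fell. The feedback inhibitor Spry2 (-0.39 ± 0.11 SE, adjusted p = 0.0610) and the ETS factors Etv4 (0.14 ± 0.17 SE, adjusted p = 0.739) and Etv5 (-0.01 ± 0.11 SE, adjusted p = 0.984), which FGF signals induce, did not pass. Dusp6, a phosphatase that ERK signalling induces and that switches ERK off, had levels of 10.65, 10.54 and 10.66 in the control arrays and 10.17, 9.84 and 9.96 in the knockdown arrays (-0.63 ± 0.10 SE, adjusted p = 0.00628). Spry4, another feedback inhibitor, fell by 0.52 ± 0.13 (SE, adjusted p = 0.0369), the phosphatase gene Dusp5 by 0.55 ± 0.12 (SE, adjusted p = 0.0194), the ETS factor Etv1 by 0.73 ± 0.18 (SE, adjusted p = 0.0366) and the ligand Fgf10 by 0.57 ± 0.11 (SE, adjusted p = 0.0124). The Dusp6 groups stood 0.37 apart and its call held without any single array, whereas Spry4 (0.0592 to 0.126) and Etv1 (0.0597 to 0.149) lost the call without control replicate 2 or 3 or knockdown replicate 1, 2 or 3, Dusp5 (0.0692 to 0.111) without control replicate 3 or knockdown replicate 1 or 2 and Fgf10 (0.0536) without knockdown replicate 3. In the Nodal and activin list 0 rose and 3 fell of 22 (median -0.05, leaving out each array: 1, 0, 0, 0, 1 and 0 rising and 3, 1, 0, 3, 1 and 1 falling). Nodal, a ligand of the TGF-beta family, had 11.18, 11.32 and 11.63 in the control arrays and 10.53, 10.58 and 10.65 in the knockdown arrays (-0.79 ± 0.15 SE, adjusted p = 0.0110). Its inhibitor and target Lefty1 had 10.66, 10.13 and 10.55 in the control arrays and 10.06, 9.43 and 8.998 in the knockdown arrays (-0.95 ± 0.25 SE, adjusted p = 0.0494). In Lefty1 control replicate 2 was only 0.07 above knockdown replicate 1. The corepressor gene Skil fell by 0.64 ± 0.14 (SE, adjusted p = 0.0210). Lefty2, the close relative of Lefty1, did not pass (0.28 ± 0.38 SE, adjusted p = 0.752). Nodal (0.0634) lost the call without control replicate 3, Lefty1 (0.0542 to 0.192) without control replicate 1, 2 or 3 or knockdown replicate 2 or 3 and Skil (0.0618 to 0.117) without control replicate 2 or 3 or knockdown replicate 2 or 3. In the BMP list 0 rose and 4 fell of 24 (median -0.14, leaving out each array: 4, 4, 2, 3, 4 and 3 falling). The called genes were 3 of the 4 Id genes, which encode inhibitors of basic helix-loop-helix factors and are targets of BMP signals, and the homeobox gene Msx2. Id3 had 9.27, 9.93 and 10.32 in the control arrays and 8.48, 8.32 and 8.15 in the knockdown arrays (-1.52 ± 0.21 SE, adjusted p = 0.00298). Id1 had 10.12, 10.52 and 10.90 in the control arrays and 9.19, 9.63 and 9.52 in the knockdown arrays (-1.07 ± 0.21 SE, adjusted p = 0.0122), and Id2 fell by 0.92 ± 0.16 (SE, adjusted p = 0.00762). In Id1 and Id3 control replicate 1 was the lowest control and lay above all knockdown arrays. Msx2 fell by 0.69 ± 0.16 (SE, adjusted p = 0.0292). Id1 (0.0697) lost the call without control replicate 3 and Msx2 (0.101 to 0.156) without control replicate 3 or knockdown replicate 1 or 3.

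YAP, acting with TEAD factors, and serum response factor (SRF) both read cell shape and actin tension, and some of their targets fell, cytoskeletal genes among them. In the YAP and TEAD list 0 rose and 6 fell of 17 members (median -0.11, leaving out each array: 1, 0, 0, 0, 0 and 0 rising and 5, 5, 4, 5, 4 and 4 falling). Ccn1, a matricellular protein gene, had levels of 10.56, 9.94 and 10.77 in the control arrays and 9.31, 8.41 and 8.18 in the knockdown arrays (-1.79 ± 0.25 SE, adjusted p = 0.00313). Its relative Ccn2 had 11.40, 11.21 and 11.59 in the control arrays and 10.69, 9.90 and 9.79 in the knockdown arrays (-1.27 ± 0.19 SE, adjusted p = 0.00383). In both, knockdown replicate 1 was the highest of the knockdown arrays by more than 0.7. The scaffold genes Amotl2 (-0.58 ± 0.11 SE, adjusted p = 0.00976) and Ajuba (-0.52 ± 0.082 SE, adjusted p = 0.00552), which act within the Hippo pathway, fell too, and so did the kinase gene Lats2 (-0.41 ± 0.11 SE, adjusted p = 0.0456). Thbs1, encoding thrombospondin, had 10.52, 8.97 and 9.65 in the control arrays and 8.83, 7.41 and 7.05 in the knockdown arrays (-1.95 ± 0.42 SE, adjusted p = 0.0193). Thbs1 (0.0748 to 0.0908) lost the call without control replicate 3 or knockdown replicate 2 or 3 and Lats2 (0.0562 to 0.192) without any one of the 6 ESC arrays.

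The letters GGAATG bound by TEAD factors, searched on both strands of the 250 bases upstream of the start site, occurred in 3 of the 4 called members with upstream sequence and in 13.2% of all 15059 genes. They are shown, with the match in capitals and the sequence read 5′ to 3′ towards the gene (RefSeq, GRCm38.p6), because each of these genes fell and kept its call without any single array. The fourth, Lats2, held no match.
Ccn1 (chr3:145650038-145650133, minus strand): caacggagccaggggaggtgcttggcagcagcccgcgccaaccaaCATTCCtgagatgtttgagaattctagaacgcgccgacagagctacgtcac
Amotl2 (chr9:102717694-102717789, plus strand): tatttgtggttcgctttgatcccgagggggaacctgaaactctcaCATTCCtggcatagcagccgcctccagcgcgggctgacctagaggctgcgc
Ajuba (chr14:54577775-54577892, minus strand): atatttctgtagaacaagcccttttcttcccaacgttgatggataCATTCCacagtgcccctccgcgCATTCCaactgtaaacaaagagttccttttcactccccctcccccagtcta
The matches, all on the opposite strand as CATTCC, begin 103 bases upstream of the start in Ccn1, 65 in Amotl2, and 186 and 164 in Ajuba. A match is a description of the letters and not a mapped binding site. Among all genes that fell 13.8% and among all that rose 13.7% held the motif.

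In the SRF and actin list 0 rose and 6 fell of 24 (median -0.27, leaving out each array: 3, 5, 1, 5, 2 and 1 falling), so that 3 falls remained in the count without control replicate 1. Srf itself had levels of 10.30, 10.30 and 10.43 in the control arrays and 9.84, 9.86 and 9.74 in the knockdown arrays. The 3 controls lay within 0.13 of each other and at least 0.44 above the knockdown arrays (-0.53 ± 0.079 SE, adjusted p = 0.00383), and the call held without any single array. Tagln, whose product binds actin in smooth muscle, had 9.88, 7.99 and 9.30 in the control arrays and 7.88, 6.89 and 6.73 in the knockdown arrays (-1.89 ± 0.40 SE, adjusted p = 0.0187). Its controls spanned 1.89, with control replicate 1 highest and control replicate 2 only 0.11 above knockdown replicate 1. The tropomyosin gene Tpm2 fell by 0.55 ± 0.11 (SE, adjusted p = 0.0120), the calponin gene Cnn2 by 0.94 ± 0.23 (SE, adjusted p = 0.0323), the actin crosslinker Flna by 0.50 ± 0.12 (SE, adjusted p = 0.0283) and caldesmon, Cald1, by 0.67 ± 0.17 (SE, adjusted p = 0.0460). Tagln (0.0698 to 0.0963) lost the call without control replicate 3 or knockdown replicate 2 or 3, Tpm2 (0.0586 to 0.0649) without control replicate 3 or knockdown replicate 3, Cnn2 (0.0699 to 0.136) without control replicate 1 or 3 or knockdown replicate 2 or 3, Flna (0.0557 to 0.108) without any one of the 6 ESC arrays and Cald1 (0.0664 to 0.159) without control replicate 1 or 3 or knockdown replicate 1, 2 or 3. Fibroblast markers, which share such genes, had 0 of 12 called by limma (1 at an unadjusted p under 0.05, leaving out each array: 0, 0, 0, 1, 0 and 0 rising) and means of 6.54 to 7.07 in the control arrays and 6.66 to 6.75 in the knockdown arrays, highest in control replicate 1, and Lum, Postn and S100a4 were below the lower quartile of the arrays. Their part in these falls was not tested.

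The CArG box, the motif of SRF, occurred upstream of 2 of the 5 called SRF list members with sequence, Srf and Cnn2. It occurred in 1.46% of all genes, in 1.83% of those that fell and in 0.719% of those that rose. Matches in uncalled members of this list and of the YAP and TEAD list were not counted. Neither count can therefore be read as a link with the falls. The stretches show the motif in capitals.
Srf (chr17:46556170-46556289, minus strand): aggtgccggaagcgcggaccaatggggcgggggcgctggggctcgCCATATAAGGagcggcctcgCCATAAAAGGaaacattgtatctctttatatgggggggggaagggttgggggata
Cnn2 (chr10:79988499-79988598, plus strand): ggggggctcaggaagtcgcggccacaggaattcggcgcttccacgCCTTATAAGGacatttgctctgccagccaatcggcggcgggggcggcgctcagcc
Srf holds 2 matches, 82 and 62 bases upstream of its start, and Cnn2 holds 1, 56 bases upstream. Of the called immediate early genes with upstream sequence none of 4 held it.

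Immediate early genes, which respond within minutes to serum and growth factors, gave 0 rises and 4 falls among 24 members (median -0.31; leaving out each array: 1, 0, 0, 0, 0 and 0 rising and 5, 3, 1, 6, 1 and 1 falling). With the 6 ESC arrays alone 2 fell. Klf6, a zinc finger factor, had levels of 9.87, 9.78 and 10.07 in the control arrays and 9.18, 8.78 and 8.89 in the knockdown arrays (-0.96 ± 0.15 SE, adjusted p = 0.00468) and held without any single array. Jun, a subunit of the AP-1 factor, had 8.95, 8.99 and 9.33 in the control arrays and 8.62, 8.07 and 7.74 in the knockdown arrays (-0.94 ± 0.21 SE, adjusted p = 0.0232). Its AP-1 partner gene Fosb had 8.62, 9.83 and 9.98 in the control arrays and 8.44, 7.67 and 7.60 in the knockdown arrays (-1.57 ± 0.39 SE, adjusted p = 0.0373), and the antiproliferative gene Btg2 fell by 0.69 ± 0.15 (SE, adjusted p = 0.0187). In Jun and Fosb, knockdown replicate 1 was the highest of the knockdown arrays, and in Fosb it came within 0.18 of control replicate 1. Jun (0.0778 to 0.126) and Btg2 (0.0583 to 0.100) lost the call without control replicate 3 or knockdown replicate 2 or 3 and Fosb (0.116 to 0.184) without control replicate 2 or 3 or knockdown replicate 2 or 3. The letters TGANTCA of AP-1, on both strands, were in the upstream window of none of these 4 genes and of 7.17% of all genes.

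Of keratins and epithelial junction genes 0 rose and 8 fell of 20 members, with a median of -0.52 (leaving out each array: 7, 8, 2, 6, 2 and 2 falling). With the 6 ESC arrays alone 4 fell. Of the 20 members 5 had a difference above 0 and 15 one below. Cdh1, the gene of E-cadherin, did not pass (0.12 ± 0.14 SE, adjusted p = 0.723), and its knockdown arrays lay just above the controls. The keratin genes Krt8 (-1.48 ± 0.42 SE, adjusted p = 0.0610) and Krt19 (-0.91 ± 0.33 SE, adjusted p = 0.141) did not pass either, and their groups overlapped. Perp, a desmosome protein and p53 target, had levels of 10.64, 10.55 and 11.16 in the control arrays and 9.50, 9.82 and 9.39 in the knockdown arrays (-1.22 ± 0.18 SE, adjusted p = 0.00383). The lowest control was 0.73 above the highest knockdown array, and the call held without any single array, as did that of Cldn6. Krt18, a keratin of simple epithelia, had 10.97, 8.86 and 9.91 in the control arrays and 8.77, 7.92 and 7.95 in the knockdown arrays (-1.70 ± 0.39 SE, adjusted p = 0.0269). Its controls spanned 2.12, control replicate 1 was highest, and control replicate 2 was only 0.09 above knockdown replicate 1. Epcam, an epithelial adhesion molecule, fell by 0.75 ± 0.18 (SE, adjusted p = 0.0346), the desmosomal plakophilin gene Pkp2 by 0.66 ± 0.15 (SE, adjusted p = 0.0249) and the claudin gene Cldn7 by 0.67 ± 0.16 (SE, adjusted p = 0.0311). Beyond the naming rule, the splicing regulator Esrp1 (-0.999 ± 0.25 SE, adjusted p = 0.0374) and occludin, Ocln, (-0.46 ± 0.12 SE, adjusted p = 0.0414) were the other called members. Krt18 (0.0975 to 0.111) lost the call without control replicate 3 or knockdown replicate 2 or 3, Epcam (0.0557 to 0.152) without control replicate 2 or 3 or knockdown replicate 1, 2 or 3, Pkp2 (0.0623 to 0.126) and Esrp1 (0.0709 to 0.164) without control replicate 2 or 3 or knockdown replicate 2 or 3, Cldn7 (0.0608 to 0.149) without control replicate 3 or knockdown replicate 1, 2 or 3 and Ocln (0.0642 to 0.202) without control replicate 1 or 3 or knockdown replicate 1, 2 or 3. Of 12 trophoblast markers Cdx2 and Krt18 fell and none rose (both calls were lost with the 6 ESC arrays alone), the mean of the list was 7.42 to 7.98 in the control arrays and 7.14 to 7.36 in the knockdown arrays, and Elf5, Plac1 and Tpbpa lay below the lower quartile of the arrays. Their part in the epithelial falls was not tested. Of the classical cadherins 0 rose and 2 fell of 10, Cdh2 and the type II cadherin Cdh10 (-0.70 ± 0.16 SE, adjusted p = 0.0285), and leaving out each array gave 2, 1, 1, 2, 1 and 1 falling. Cdh10 (0.0612 to 0.150) lost the call without control replicate 2 or 3 or knockdown replicate 2 or 3. The laminin gene Lama1, a basement membrane subunit, had 9.84, 9.65 and 9.29 in the control arrays and 10.45, 10.26 and 10.64 in the knockdown arrays and rose by 0.86 ± 0.15 (SE, adjusted p = 0.00826). In the matrix list 2 rose and 1 fell of 27 (leaving out each array: 3, 2, 2, 2, 2 and 2 rising and 2, 1, 0, 1, 0 and 0 falling), the rises being Lama1 and Crtac1 and the fall Thbs1. Of 13 mesoderm markers the T-box gene Tbx6 rose (0.43 ± 0.10 SE, adjusted p = 0.0237), the list mean being 7.13 to 7.32 in the control arrays and 7.05 to 7.18 in the knockdown arrays. Of 13 endoderm markers Lama1 rose and the adaptor gene Dab2 fell (-0.99 ± 0.20 SE, adjusted p = 0.0152), the list mean being 7.24 to 7.35 in the control arrays and 7.23 to 7.37 in the knockdown arrays. Dab2 (0.0751 to 0.0895) lost the call without control replicate 3 or knockdown replicate 3 and Tbx6 (0.0602 to 0.126) without control replicate 3 or knockdown replicate 1, 2 or 3.

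Several neuronal genes were measurable in control ESC and fell in the knockdown. In the neuronal cytoskeleton and growth cone list 0 rose and 7 fell of 22 members (median -0.19, leaving out each array: 7, 7, 2, 6, 4 and 2 falling), and 4 fell with the 6 ESC arrays alone. Nefl, the light neurofilament subunit, had levels of 10.14, 10.64 and 10.74 in the control arrays and 9.65, 9.14 and 8.999 in the knockdown arrays (-1.24 ± 0.20 SE, adjusted p = 0.00552). Crmp1, a collapsin response mediator that relays semaphorin signals, had 10.52, 11.02 and 10.89 in the control arrays and 9.72, 10.17 and 9.72 in the knockdown arrays (-0.94 ± 0.16 SE, adjusted p = 0.00762). Both held without any single array. Its relatives Dpysl2 and Dpysl3 fell by 0.64 ± 0.15 (SE, adjusted p = 0.0266) and by 0.63 ± 0.12 (SE, adjusted p = 0.0138), the microtubule gene Map2 by 0.70 ± 0.13 (SE, adjusted p = 0.0108), and the tubulin genes Tuba1a and Tubb3 by 0.39 ± 0.093 (SE, adjusted p = 0.0287) and by 0.56 ± 0.14 (SE, adjusted p = 0.0349). Dpysl2 (0.0566 to 0.126) lost the call without control replicate 1 or 3 or knockdown replicate 2 or 3, Dpysl3 (0.0556 to 0.0723) and Map2 (0.0562 to 0.0636) without control replicate 3 or knockdown replicate 3 and Tuba1a (0.0705 to 0.149) and Tubb3 (0.0585 to 0.178) without control replicate 3 or knockdown replicate 1, 2 or 3. Neurod1, a neurogenic helix-loop-helix factor, had 9.38, 9.54 and 9.73 in the control arrays and 8.92, 8.43 and 8.16 in the knockdown arrays (-1.05 ± 0.16 SE, adjusted p = 0.00446) and held without any single array. With Onecut2 (-0.53 ± 0.12 SE, adjusted p = 0.0287) it made up the proneural list's calls, in which 0 rose and 2 fell of 25 (leaving out each array: 4, 1, 1, 1, 2 and 1 falling). Of neural progenitor factors 1 rose and 2 fell of 30 (leaving out each array: 1, 0, 0, 0, 1 and 0 rising and 2, 1, 0, 1, 0 and 1 falling): the homeobox genes Pax6 (-0.91 ± 0.20 SE, adjusted p = 0.0197) and Meis2 (-1.22 ± 0.31 SE, adjusted p = 0.0384) fell and the RNA-binding protein gene Msi1 rose (0.48 ± 0.12 SE, adjusted p = 0.0338). These 3 calls were lost with the 6 ESC arrays alone. The arrays of Meis2 overlapped between the groups. Onecut2 (0.0579 to 0.149) and Msi1 (0.110 to 0.160) lost the call without control replicate 2 or 3 or knockdown replicate 1 or 3, Pax6 (0.0605 to 0.0936) without control replicate 2 or 3 or knockdown replicate 2 or 3 and Meis2 (0.0974 to 0.156) without control replicate 2 or 3 or knockdown replicate 1 or 2. Of 11 neural cell markers 5 fell, all of them in these lists (3 with the 6 ESC arrays alone), the mean level was 8.18 to 8.37 in the control arrays and 7.77 to 8.04 in the knockdown arrays, and Dcx was below the lower quartile of the arrays. A change in the share of neural cells was not tested.

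Axon guidance genes changed in both directions. Among semaphorins, plexins and neuropilins 2 rose and 3 fell of 31 (leaving out each array: 2, 1, 1, 2, 2 and 1 rising and 5, 3, 3, 3, 3 and 3 falling). Besides Sema6a, the secreted Sema3c (-1.03 ± 0.17 SE, adjusted p = 0.00646) and Sema3e (-0.90 ± 0.16 SE, adjusted p = 0.00781) fell. Sema4g, a transmembrane member, had 7.31, 7.27 and 7.11 in the control arrays and 8.06, 8.12 and 8.33 in the knockdown arrays and rose by 0.94 ± 0.13 (SE, adjusted p = 0.00298). These 4 held without any single array, and the groups of Sema4g stood 0.75 apart. The receptor gene Plxna2 rose by 0.50 ± 0.11 (SE, adjusted p = 0.0177). Of ephrins and Eph receptors 0 rose and 3 fell of 20 (leaving out each array: 3, 3, 2, 4, 3 and 2 falling): the ligands Efnb2, with 7.98, 8.83 and 9.03 in the control arrays and 7.31, 7.62 and 7.17 in the knockdown arrays (-1.25 ± 0.21 SE, adjusted p = 0.00646), and Efna5 (-0.59 ± 0.10 SE, adjusted p = 0.00762), and the receptor Epha1 (-0.84 ± 0.16 SE, adjusted p = 0.0122), whose call single arrays ended as given above. Plxna2 (0.0517 to 0.103) lost the call without control replicate 2 or 3 or knockdown replicate 1 or 3. Of Notch genes 0 rose and 2 fell of 20 (leaving out each array: 1, 0, 0, 0, 0 and 0 rising and 2, 2, 0, 2, 1 and 0 falling), the ligand Dll1 (-0.75 ± 0.19 SE, adjusted p = 0.0369) and the Hes family gene Hes6 (-0.51 ± 0.11 SE, adjusted p = 0.0161). Dll1 (0.0906 to 0.178) lost the call without control replicate 2 or 3 or knockdown replicate 1, 2 or 3 and Hes6 (0.0729 to 0.0820) without control replicate 3 or knockdown replicate 3. In the Hedgehog list 0 of 13 passed in limma's test (3 at an unadjusted p under 0.05, leaving out each array: 1, 0, 0, 0, 0 and 0 falling), with Gli3 nearest (-0.43 ± 0.15 SE, adjusted p = 0.123). In the Hox list 0 of 38 passed (2 at an unadjusted p under 0.05), with Hoxb4 nearest (0.36 ± 0.12 SE, adjusted p = 0.107). The retinoic acid list had 1 rise in 18 (leaving out each array: 1, 0, 0, 2, 0 and 0 rising), the binding protein gene Crabp1 (0.74 ± 0.16 SE, adjusted p = 0.0186). Crabp1 (0.0623 to 0.0936) lost the call without control replicate 2 or 3 or knockdown replicate 2 or 3.

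The largest fall of all was that of Gbp2, a guanylate-binding GTPase induced by interferon. Its levels were 8.86, 7.90 and 9.13 in the control arrays and 7.199, 5.94 and 5.06 in the knockdown arrays. No knockdown array reached the lowest control, but the knockdown arrays themselves spanned 2.14, down to below the lower quartile of the arrays, so the size of -2.56 ± 0.46 (SE, adjusted p = 0.00976) is rough. Its neighbour and close paralog Gbp2b, whose probes may share transcripts with Gbp2, had 7.805, 7.02 and 7.995 in the control arrays and 6.39, 5.63 and 5.53 in the knockdown arrays (-1.75 ± 0.26 SE, adjusted p = 0.00383). Gbp2 (0.0591) lost the call without control replicate 3. The interferon list gave calls in both directions. 2 rose and 2 fell of 40 members, and the median was 0.04 (leaving out each array: 4, 2, 1, 2, 2 and 1 rising and 3, 2, 0, 3, 2 and 1 falling). Oasl2, an antiviral gene of the oligoadenylate synthetase family, fell by 0.94 ± 0.19 (SE, adjusted p = 0.0160), whereas Stat2, a transducer of the type I interferon receptor, rose by 0.73 ± 0.15 (SE, adjusted p = 0.0152) and the Schlafen gene Slfn9 by 1.29 ± 0.22 (SE, adjusted p = 0.00781). Oasl2 (0.0790 to 0.0933) and Stat2 (0.0763 to 0.0862) lost the call without control replicate 3 or knockdown replicate 3. Irgm1, an immunity-related GTPase named after its value was seen, had 6.86, 6.70 and 7.50 in the control arrays and 6.01, 5.80 and 5.27 in the knockdown arrays (-1.32 ± 0.22 SE, adjusted p = 0.00625) and held without any single array. Knockdown values of Irgm1 and Gbp2b and control values of Slfn9 went down to below the lower quartile of the arrays, so these sizes are rough.

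The letters GAAANNGAAA of the interferon-stimulated response element (ISRE), on either strand of the 250 upstream bases, occurred in 3.46% of all genes, in 5.07% of those that fell and in 3.60% of those that rose. They are shown for the 3 GTPase genes that fell, of which Gbp2b and Irgm1 were picked after their values were seen, so no count is drawn from them.
Gbp2 (chr3:142620559-142620658, plus strand): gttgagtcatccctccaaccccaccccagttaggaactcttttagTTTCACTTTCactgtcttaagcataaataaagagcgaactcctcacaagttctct
Gbp2b (chr3:142594665-142594764, plus strand): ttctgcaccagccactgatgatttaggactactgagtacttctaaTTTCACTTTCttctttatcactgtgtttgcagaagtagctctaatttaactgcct
Irgm1 (chr11:48871421-48871495, minus strand): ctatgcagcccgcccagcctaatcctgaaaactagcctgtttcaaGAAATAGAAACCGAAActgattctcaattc
Gbp2 and Gbp2b carry the same 10 letters, TTTCACTTTC, 59 and 137 bases upstream of the start, and Irgm1 has 2 overlapping matches at 30 and 24 bases. Within the list, Slfn9 and Stat2, which rose, also held the motif, and Oasl2, which fell, did not.

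In the list of sterol synthesis and lipid desaturation 5 rose and 0 fell of 24 members, and no enzyme of cholesterol synthesis was among them. The 5 include Slc13a5, a transporter rather than a sterol or desaturase enzyme. The list was chosen with earlier results of these data known, so its count is not independent evidence. The median was 0.16 (leaving out each array: 5, 5, 4, 5, 4 and 4 rising). Besides the citrate transporter Slc13a5, Scd1, a desaturase that makes monounsaturated fatty acids, had levels of 10.82, 10.31 and 10.25 in the control arrays and 11.66, 11.57 and 11.82 in the knockdown arrays (1.22 ± 0.17 SE, adjusted p = 0.00318). Srebf2, the transcription factor that drives sterol synthesis genes, had 11.16, 11.05 and 11.01 in the control arrays and 11.49, 11.55 and 11.59 in the knockdown arrays (0.47 ± 0.08 SE, adjusted p = 0.00762). In both genes all knockdown arrays lay above all controls, and their calls and that of Slc13a5 held without any single array. The desaturase genes Fads2 and Scd2 rose by 0.45 ± 0.087 (SE, adjusted p = 0.0122) and 0.42 ± 0.083 (SE, adjusted p = 0.0134). Fads2 (0.0526 to 0.0535) lost the call without control replicate 3 or knockdown replicate 2 and Scd2 (0.0664) without knockdown replicate 3. The letters TCACNCCAC of an SREBP site, on both strands, were upstream of none of 3 called members with sequence and of 1.20% of all genes.

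Of germ cell and meiosis genes 6 rose and 0 fell of 42 members, and the median of 0.05 was near that of all genes (leaving out each array: 5, 3, 3, 6, 4 and 2 rising and 3, 0, 0, 0, 0 and 0 falling). Hormad2, a protein of meiotic chromosome axes, had levels of 6.26, 6.59 and 6.47 in the control arrays and 7.24, 7.22 and 7.21 in the knockdown arrays (0.79 ± 0.10 SE, adjusted p = 0.00298). The 3 knockdown arrays lay within 0.029 of each other and 0.62 above the controls. Stag3, a meiotic cohesin subunit, had 9.45, 9.25 and 9.23 in the control arrays and 10.16, 9.98 and 10.23 in the knockdown arrays (0.82 ± 0.13 SE, adjusted p = 0.00552), and both held without any single array. Smc1b, another meiotic cohesin subunit, rose by 0.82 ± 0.17 (SE, adjusted p = 0.0161), Rpl10l, a testis paralog of a ribosomal protein, by 1.02 ± 0.21 (SE, adjusted p = 0.0183), D1Pas1, a DEAD-box helicase gene of the testis, by 0.56 ± 0.13 (SE, adjusted p = 0.0269), and Mov10l1, a helicase of the piRNA pathway, by 0.57 ± 0.15 (SE, adjusted p = 0.0481). Smc1b (0.0566 to 0.0937) lost the call without control replicate 3 or knockdown replicate 1 or 3, Rpl10l (0.0555 to 0.0842) without control replicate 2 or knockdown replicate 2 or 3, D1Pas1 (0.0677 to 0.123) without control replicate 2 or 3 or knockdown replicate 2 or 3 and Mov10l1 (0.0697 to 0.185) without control replicate 1, 2 or 3 or knockdown replicate 1 or 3. The canonical E-box CACGTG was upstream of 2 of these 6 genes, Stag3 and Mov10l1, of 8.11% of all genes and of 8.63% of those that rose.

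Imprinted genes, expressed from a single parental allele, gave 0 rises and 3 falls among 29 (median -0.14, leaving out each array: 0, 0, 0, 0, 1 and 0 rising and 5, 4, 1, 3, 2 and 1 falling). Peg10, a retrotransposon-derived gene expressed from the paternal allele, had levels of 12.77, 12.73 and 12.89 in the control arrays and 12.12, 12.16 and 11.73 in the knockdown arrays (-0.79 ± 0.11 SE, adjusted p = 0.00341) and held without any single array. Its imprinted neighbour Sgce, a sarcoglycan gene, fell by 0.70 ± 0.14 (SE, adjusted p = 0.0147), and Dlk1, a Notch-related membrane protein gene, by 0.69 ± 0.13 (SE, adjusted p = 0.0120). Sgce (0.0601 to 0.0862) lost the call without control replicate 3 or knockdown replicate 2 or 3 and Dlk1 (0.0556 to 0.0718) without control replicate 3 or knockdown replicate 3. Of p53 target genes 0 rose and 3 fell of 22 (leaving out each array: 1, 0, 0, 0, 0 and 0 rising and 3, 3, 1, 3, 2 and 1 falling), with Perp, Btg2 and the kinase gene Plk2 (-0.93 ± 0.17 SE, adjusted p = 0.00985). Among Bcl2 family genes 0 rose and 2 fell of 17 (leaving out each array: 1, 1, 1, 1, 1 and 1 falling). Bcl2l11, which encodes the death promoter Bim, had 9.64, 9.55 and 9.72 in the control arrays and 9.20, 9.07 and 9.05 in the knockdown arrays (-0.54 ± 0.092 SE, adjusted p = 0.00781) and held without any single array, and Bnip3l fell by 0.70 ± 0.19 (SE, adjusted p = 0.0499). Plk2 (0.0518 to 0.0561) lost the call without control replicate 3 or knockdown replicate 3 and Bnip3l (0.0516 to 0.220) without any one of the 6 ESC arrays.

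Among cell cycle genes the shares called were near the 5.21% of all genes. Of replication and mitosis genes 0 rose and 2 fell of 29 (6.90% called, median -0.09, leaving out each array: 1, 0, 0, 1, 0 and 0 falling), the anaphase activator Cdc20 (-0.40 ± 0.088 SE, adjusted p = 0.0228) and the ribonucleotide reductase subunit Rrm1 (-0.34 ± 0.087 SE, adjusted p = 0.0446). Of D cyclins, Cdk inhibitors and pocket proteins 1 of 18 (5.56%) fell, Ccnd2 (-0.79 ± 0.16 SE, adjusted p = 0.0161), and leaving out each array gave 1, 1, 0, 1, 1 and 1 falling. Cdc20 (0.0524 to 0.126) lost the call without control replicate 2 or 3 or knockdown replicate 2 or 3, Rrm1 (0.0560 to 0.179) without any one of the 6 ESC arrays and Ccnd2 (0.0937) without control replicate 3. Fitted on the 6 ESC arrays alone, both lists lost these calls. Of 28 glycolysis and hypoxia genes 1 rose, the angiogenic factor Vegfa (0.71 ± 0.14 SE, adjusted p = 0.0142), and leaving out each array gave 2, 1, 0, 0, 1 and 0 rising. Of 10 heat shock genes 2 fell, the cochaperone Dnajb1 (-0.43 ± 0.11 SE, adjusted p = 0.0389) and the mitochondrial chaperonin Hspd1 (-0.44 ± 0.11 SE, adjusted p = 0.0422), and leaving out each array gave 2, 0, 0, 0, 0 and 0 falling. Vegfa (0.0507 to 0.0713) lost the call without control replicate 3 or knockdown replicate 1 or 3 and Dnajb1 (0.0591 to 0.194) and Hspd1 (0.0976 to 0.172) without control replicate 2 or 3 or knockdown replicate 1, 2 or 3. Both heat shock calls were lost with the 6 ESC arrays alone. In the unfolded protein and amino acid list 0 of 18 passed in limma's test (1 at an unadjusted p under 0.05, leaving out each array: 1, 0, 0, 0, 0 and 0 rising), with Xbp1 nearest (0.35 ± 0.11 SE, adjusted p = 0.0951).

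Other chromatin regulators were called in shares near the 5.21% of all genes. Of 17 further lysine demethylase genes 1 (5.88%) fell, Kdm2b, an H3K36 demethylase that recruits a Polycomb complex to CpG islands (-0.73 ± 0.15 SE, adjusted p = 0.0167), and leaving out each array gave 2, 0, 0, 0, 1 and 0 falling. Of 29 Polycomb genes 1 (3.45%) rose, Phc3, a subunit of Polycomb complex PRC1 (0.48 ± 0.13 SE, adjusted p = 0.0483), and leaving out each array gave 1, 1, 0, 0, 0 and 0 rising and 2, 0, 0, 0, 0 and 0 falling. Of 13 DNA methylation genes Dnmt3b alone passed (7.69%; leaving out each array: 0, 1, 0, 0, 0 and 0 rising and 1, 1, 1, 1, 1 and 1 falling). Kdm2b (0.0554 to 0.0937) lost the call without control replicate 2 or 3 or knockdown replicate 1 or 3 and Phc3 (0.0772 to 0.131) without control replicate 1 or 3 or knockdown replicate 1, 2 or 3. Kdm2b and Phc3 lost their calls with the 6 ESC arrays alone.

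Carbonic anhydrases, which interconvert carbon dioxide and bicarbonate, gave 3 falls in 16 genes (leaving out each array: 5, 2, 2, 2, 2 and 2 falling). Car2, a cytosolic enzyme, had levels of 11.17, 10.95 and 11.37 in the control arrays and 9.93, 9.15 and 8.90 in the knockdown arrays (-1.84 ± 0.22 SE, adjusted p = 0.00214). Car3, its neighbour in the genome, had 8.03, 8.11 and 8.503 in the control arrays and 6.83, 6.25 and 6.01 in the knockdown arrays (-1.85 ± 0.19 SE, adjusted p = 0.000568). Every knockdown array was at least 1.02 below every control in Car2 and 1.19 in Car3, and the calls held without any single array. The membrane-anchored Car4 fell by 1.18 ± 0.29 (SE, adjusted p = 0.0369). The median of the family was 0.09, and 10 of its 16 genes had a difference above 0. Of inward rectifier channels Kcnj3 fell and Kcnj12 rose (0.59 ± 0.13 SE, adjusted p = 0.0193) of 15 (leaving out each array: 2, 1, 0, 0, 0 and 1 rising and 1, 1, 1, 1, 1 and 1 falling). Car4 (0.0531 to 0.182) lost the call without control replicate 2 or 3 or knockdown replicate 1, 2 or 3 and Kcnj12 (0.0657 to 0.111) without control replicate 3 or knockdown replicate 1 or 2.

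**Figure D4:**
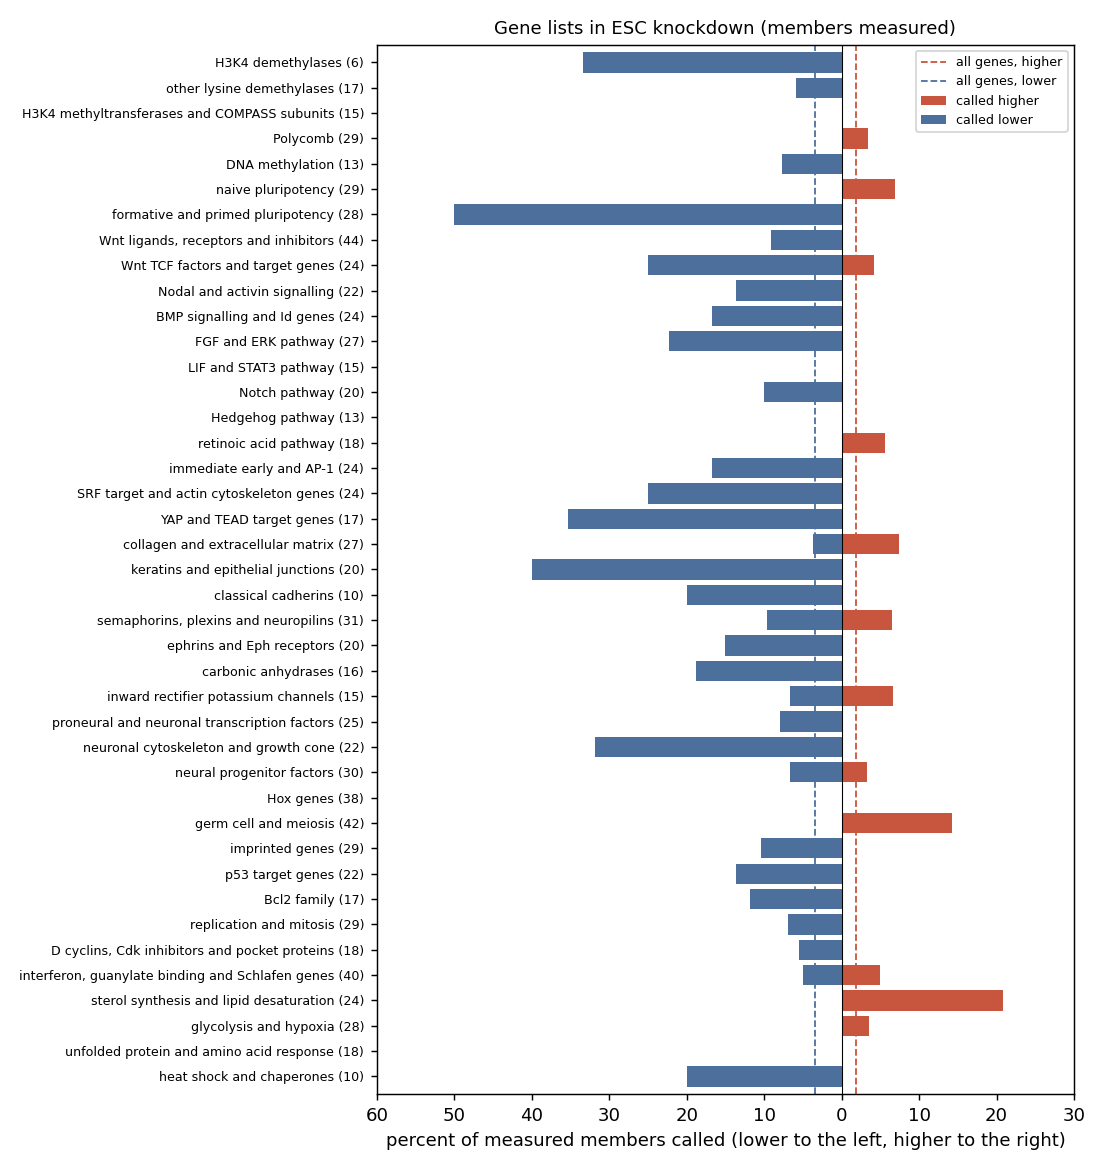
Percent of the measured members of each gene list that fell (bars to the left) or rose (bars to the right) in knockdown ESC, with the number measured in brackets. Dashed lines give the same percent over all genes, 3.37% and 1.84%. Of the formative and primed list 14 of 28 fell, and bars of small lists rest on few genes.

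In some pairs of genes next to each other in the genome both were called. Of 18749 neighbouring pairs of measured genes 61 (0.325%) had both genes called, against 0.272% for the square of the 5.21% share of called genes, and whether such pairs were in excess was not tested. The 61 pairs were 36 with both lower, 14 with both higher and 11 in opposite directions. The pairs with the smallest p included Car3 and Car2, Gbp2b and Gbp2, Slc13a5 and Xaf1, and Fndc3c1 and Cysltr1, a leukotriene receptor gene (-0.98 ± 0.17 SE, adjusted p = 0.00826). Mbnl3, a splicing regulator, (-0.72 ± 0.10 SE, adjusted p = 0.00298) fell beside Hs6st2, a heparan sulfate sulfotransferase gene (-1.27 ± 0.20 SE, adjusted p = 0.00557), and Uspl1 (-0.43 ± 0.079 SE, adjusted p = 0.0107) beside Alox5ap, which activates leukotriene synthesis (-0.85 ± 0.17 SE, adjusted p = 0.0142). In opposite directions, Cerkl, a ceramide kinase-like gene, had 6.01, 6.08 and 5.92 in the control arrays and 6.80, 6.54 and 6.93 in the knockdown arrays (0.75 ± 0.10 SE, adjusted p = 0.00298) while its neighbour Neurod1 fell, and Gbe1, the glycogen branching enzyme, fell (-0.92 ± 0.17 SE, adjusted p = 0.0102) while the guidance receptor gene Robo1 rose (0.67 ± 0.12 SE, adjusted p = 0.00826). Uspl1 (0.0537 to 0.0547) lost the call without control replicate 3 or knockdown replicate 3, Alox5ap (0.0512 to 0.0849) without control replicate 3 or knockdown replicate 1 or 3 and Gbe1 (0.0611) and Robo1 (0.0532) without control replicate 3. Cysltr1, Hs6st2 and the control values of Cerkl lay near or below the lower quartile of the arrays, so the sizes for these genes are rough. Probe sets of neighbouring or paralogous genes may share transcripts, and this was not tested.

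The effects of the same shRNA in NPC were compared gene by gene. In NPC 194 genes passed (1.03%), and 17 of the 979 genes called in ESC were called in NPC too. The difference of the knockdown effects, ESC minus NPC, passed for 267 genes (1.42%), and for 162 of the 979 genes called in ESC, 128 that fell and 34 that rose. These 979 genes were picked by their ESC effect, which enters the difference, so 162 of 979 cannot be read against 1.42%. The median NPC effect was -0.02 over the genes that fell in ESC and 0.05 over those that rose. Leaving out single arrays moved these counts. The NPC count was 98 without NPC control replicate 2, and 83 and 91 without NPC knockdown replicates 1 and 2. The count of differences was 546 without ESC control replicate 1 and 151 and 40 without ESC control replicates 2 and 3, and 154, 75 and 45 without ESC knockdown replicates 1, 2 and 3. It was 97 without NPC control replicate 2 and 71, 35 and 176 without NPC knockdown replicates 1, 2 and 3. The ESC and NPC contrasts share no array but share 1 estimate of the spread.

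Of the 17 genes called in both states, 8 fell in both. Kdm5b had an effect of -1.73 ± 0.11 in ESC and -0.76 ± 0.11 (adjusted p = 0.00524) in NPC, and the effects differed (-0.96 ± 0.16 SE, adjusted p = 0.0172). Igsf9, an adhesion molecule of the immunoglobulin family, had ESC levels of 9.54, 9.49 and 9.63 in the control arrays and 8.64, 8.62 and 8.42 in the knockdown arrays (-0.99 ± 0.10 SE, adjusted p = 0.000560) and an NPC effect of -0.62 ± 0.10 (adjusted p = 0.00793). In ESC its groups stood 0.86 apart. Dlk1 (-0.71 ± 0.13 in NPC), Sesn3, a stress-response gene (-0.47 ± 0.10 in ESC and -0.59 ± 0.10 in NPC), Zfp697 (-0.44 ± 0.083 and -0.45 ± 0.083) and Snn (-0.42 ± 0.091 and -0.58 ± 0.091, SE) fell in both too. In both states 5 genes rose: Stag3 (1.60 ± 0.13 in NPC), Mov10l1 (1.43 ± 0.15 in NPC), the cytochrome oxidase subunit gene Cox7a1 (0.70 ± 0.17 in ESC and 1.03 ± 0.17 in NPC), Morc1, a germ cell silencing gene (0.48 ± 0.13 and 0.64 ± 0.13), and Got1l1 (0.41 ± 0.11 and 0.69 ± 0.11, SE). In opposite directions, 4 genes fell in ESC and rose in NPC. Nodal had effects of -0.79 ± 0.15 and 0.74 ± 0.15, a difference of -1.53 ± 0.21 (adjusted p = 0.00738). Boll, a germ cell RNA-binding protein gene, had effects of -0.89 ± 0.19 and 1.18 ± 0.19, a difference of -2.07 ± 0.27 (adjusted p = 0.00682). The epithelial repressor Ovol1 had -0.56 ± 0.14 and 0.69 ± 0.14, and Sqor, a sulfide-oxidizing enzyme of mitochondria, had -0.42 ± 0.11 and 0.53 ± 0.11 (SE), from ESC values below the lower quartile of the arrays. Sesn3 (0.0621 to 0.0895), Snn (0.0674 to 0.0979) and Boll (0.0664 to 0.0910) lost the call without control replicate 3 or knockdown replicate 2 or 3, Zfp697 (0.0623) without control replicate 3, Cox7a1 (0.0762 to 0.0993), Got1l1 (0.0557 to 0.216), Ovol1 (0.0903 to 0.203) and Sqor (0.0605 to 0.162) without control replicate 2 or 3 or knockdown replicate 1, 2 or 3 and Morc1 (0.0907 to 0.215) without control replicate 2 or 3 or knockdown replicate 1 or 3.

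The largest differences toward lower in ESC were those of Car2 (-2.41 ± 0.32 SE, adjusted p = 0.00682), Boll, Lefty1 (-1.995 ± 0.36 SE, adjusted p = 0.0239), Perp (-1.90 ± 0.25 SE, adjusted p = 0.00736), Kcnj3 (-1.89 ± 0.36 SE, adjusted p = 0.0313), Efhd1 (-1.88 ± 0.22 SE, adjusted p = 0.00407), Id3 (-1.88 ± 0.29 SE, adjusted p = 0.0151) and Sema6a (-1.87 ± 0.30 SE, adjusted p = 0.0172). For Efhd1 and Kcnj3 the NPC effect was 0.08 ± 0.16 and 0.06 ± 0.25 (SE). The largest toward higher in ESC were Crtac1 (1.88 ± 0.34 SE, adjusted p = 0.0239), Pecam1 (1.55 ± 0.26 SE, adjusted p = 0.0185), Pgc (1.41 ± 0.29 SE, adjusted p = 0.0383), Cfp (1.40 ± 0.27 SE, adjusted p = 0.0314), Pmel (1.30 ± 0.28 SE, adjusted p = 0.0414), Phyhd1, a dioxygenase gene (1.29 ± 0.25 SE, adjusted p = 0.0346), Xaf1 (1.18 ± 0.24 SE, adjusted p = 0.0371) and Gabbr1, a GABA-B receptor subunit gene (1.06 ± 0.21 SE, adjusted p = 0.0356). In ESC Phyhd1 rose by 0.88 ± 0.18 (SE, adjusted p = 0.0155) and Gabbr1 by 0.81 ± 0.15 (SE, adjusted p = 0.00995). Phyhd1 (0.0551 to 0.0909) lost the call without control replicate 2 or 3 or knockdown replicate 3 and Gabbr1 (0.0611) without control replicate 3. For Lef1, Gbp2 and Arl14epl, among the largest ESC changes, the difference from NPC did not pass (adjusted p = 0.0886, 0.0683 and 0.0530).

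**Figure D5:**
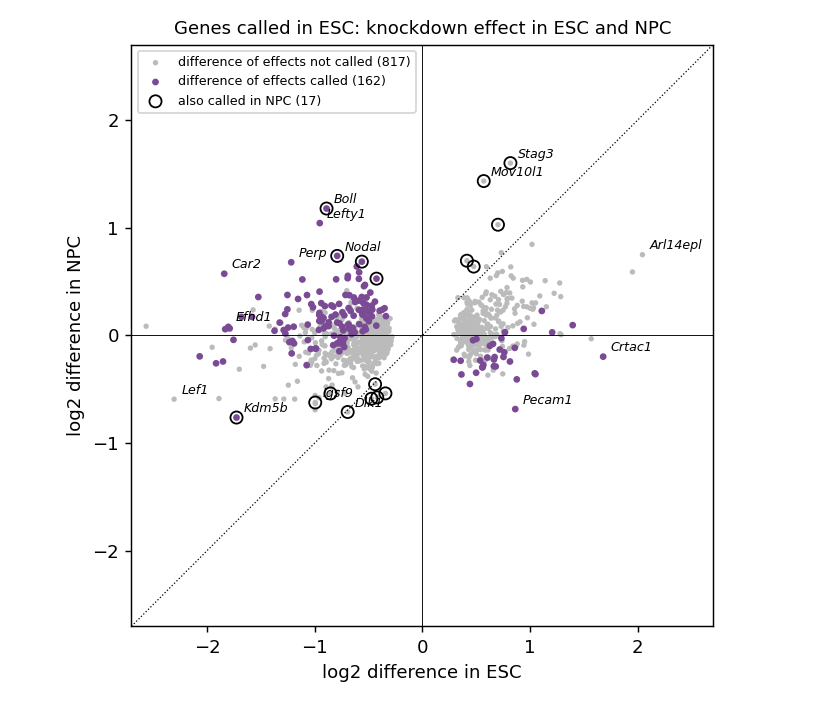
Log2 effect of the Jarid1b shRNA in ESC (x axis) and in NPC (y axis) for the 979 genes called in ESC, with a dotted line of equal effects. Purple marks the 162 genes whose effects differed at an adjusted p under 0.05, and rings mark the 17 genes also called in NPC. The median NPC effect is -0.02 over the genes that fell in ESC and 0.05 over those that rose.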

How the data were processed

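RNA was hybridised to Affymetrix mouse gene expression arrays, 12 in all, 3 for each of 4 groups. Per the submitters' processing notes, the authors used the affy package, RMA and limma (no versions stated), and the deposited values are log2 expression levels, already background-corrected, normalized and summarised per probe set, with array medians of 7.70 to 7.79. For the genome build behind the probe sets the sources used here give none. RMA compresses the differences of weakly expressed genes.

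Probe sets with several symbols (6) or none (2420) were left out of gene counts. With limma 3.58.1 (R 4.3.3), 1 mean per group was estimated from all 12 arrays (8 residual and 4.81 prior degrees of freedom), and knockdown minus control in ESC, the same in NPC and their difference were tested, all two-sided. Depth does not apply to arrays, whose number limits the precision. The code was tested on simulated data. Upstream sequences came from a RefSeq table of GRCm38.p6 and were searched on both strands of 250 bases. A motif counted for a gene if it lay upstream of any of its start sites. Members, gene lists and named genes were chosen with earlier results of these data known. Named were Kdm5b, 3 pluripotency factors, the 20 largest changes each way with no overlap between groups, up to 6 called members of each list by p (the member with the smallest p where none was called), the largest differences from NPC, genes called in both states and neighbouring pairs. Alternatives changed 1 setting at a time: low values filtered out, a replicate block, array weights or a variance trend, quantile normalization or median centring, probe sets averaged per gene, p-values adjusted over every row, fits to the 6 arrays of 1 contrast, a threshold of 0.01, and each array left out in turn.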

Additional observations from a re-analysis of the deposited data

Results flagged for a closer look

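For 55 of the named genes the knockdown effect in ESC differed from that in NPC by limma's test of the difference itself (adjusted p under 0.05, as for 1.42% of all genes). Genes were named in part by this same test and mostly by their ESC effect, which enters the difference. The count of 55 can therefore not be read against the share of all genes. Values are log2 effects in ESC minus those in NPC, and the ESC and NPC effects of many are given above. Among signalling and pluripotency genes they were -1.995 for Lefty1, -1.53 for Nodal, -1.88 for Id3, -1.45 for Id1, -0.98 for Id2, -1.22 for Msx2, -0.99 for Skil, -0.87 for Spry4, -0.66 for Dusp6, -0.82 for Fzd8, -1.16 for Sall2, -1.12 for Dnmt3b, -0.71 for Sox11, -0.91 for Tcf15 and 1.55 for Pecam1. In Lefty1, Id3, Id1, Msx2, Skil, Spry4 and Tcf15, and slightly in Id2 and Dusp6, the NPC effect was above 0 without passing the test there.

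Among genes of adhesion, cytoskeleton and cell shape the differences were -1.90 for Perp, -1.15 for Cldn6, -0.87 for Cdh2, -1.85 for Ccn1, -1.29 for Ccn2, -0.69 for Amotl2, -1.01 for Klf6, -1.24 for Btg2, -1.25 for Ovol1, 0.97 for the laminin gene Lama1 and 1.88 for Crtac1. Among genes of neurons, guidance and channels they were -1.87 for Sema6a, -1.18 for Sema3e, 0.88 for Sema4g, -1.32 for Efnb2, -1.07 for Crmp1, -1.89 for Kcnj3, -1.75 for Gabra3, 1.06 for Gabbr1 and 0.88 for Stac2. The signs of Sema6a and Sema4g, both transmembrane semaphorins, were opposite.

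Among enzymes, immune and other genes the differences were -2.41 for Car2, -1.61 for Car3, -1.88 for Efhd1, -1.85 for Rsph4a, -1.71 for Gbp2b, -1.24 for Oasl2, 1.18 for Xaf1, 1.40 for Cfp, -1.66 for Fndc3c1, -1.08 for Gbe1, -0.95 for Sqor, 0.52 for Srebf2, 1.29 for Phyhd1, 1.41 for Pgc, 1.30 for Pmel, 0.95 for Cerkl, -0.70 for Mbnl3, -0.72 for Peg10, -2.07 for Boll and -0.96 for Kdm5b itself. The log2 fall of Kdm5b was thus larger in ESC, from a control mean of 12.41 to a knockdown mean of 10.68. In NPC the means were 11.23 and 10.47, so the control levels differed more between the states than the knockdown levels.

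Outside the gene counts, 65 of the 2426 probe sets without exactly 1 symbol also passed in ESC, 25 higher and 40 lower. They could not be named here.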

How the results depend on the processing

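Kdm5b kept its call under every alternative run. The counts moved by more than 1.5 times as follows, given as genes higher and lower in ESC. Array weights gave 1130 and 1757, the 6 ESC arrays alone 175 and 325, and an adjusted p under 0.01 gave 58 and 143. Leaving out single ESC arrays gave 59 to 592 higher and 134 to 944 lower, with fewest calls without control replicate 3 and most without control replicate 1. Leaving out single NPC arrays moved the ESC counts less, to 254 to 454 higher and 479 to 823 lower. The count of genes whose effects differed between ESC and NPC (267) became 955 with array weights, 18 at an adjusted p under 0.01, and 35 to 546 on leaving out single arrays. The NPC count (194) became 29 with the 6 NPC arrays alone, 64 at an adjusted p under 0.01, and 83 to 220 on leaving out single arrays. With the replicate block the counts were 203 higher, 393 lower, 117 differing and 126 in NPC, and the falls counted were 2 in the TCF list, 2 among immediate early genes, 5 among keratins and junctions and 5 among ephrins and Eph receptors. The labels do not say that replicate numbers pair arrays, and correlations of same-numbered deviations were 0.030, -0.026 and 0.092. The share of lower among ESC calls, 64.7%, was 61.3% after median centring and 58.0% after quantile normalization (473 higher, 653 lower). Of 168 named genes, 160 or more kept their side of the threshold under the filter, the trend, weights, both scalings, the probe-set mean and adjustment over all rows, 134 under the block, 126 with 6 arrays, and 81 to 154 on leaving out single ESC arrays. No named gene changed direction where called. Signals near the lower quartile of the arrays limit what can be called.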

Other observations

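Some further gene groups were put together after their values were seen, so their counts are a description and support nothing. Of 21 genes of eicosanoid synthesis and reception, which make and read prostaglandins and leukotrienes, 0 rose and 5 fell. Ptgs2, the inducible cyclooxygenase, had levels of 7.85, 7.55 and 8.06 in the control arrays and 6.90, 6.98 and 6.98 in the knockdown arrays (-0.87 ± 0.11 SE, adjusted p = 0.00298). Alox15, a lipoxygenase, had 7.64, 7.37 and 8.62 in the control arrays and 6.77, 6.81 and 6.62 in the knockdown arrays (-1.14 ± 0.23 SE, adjusted p = 0.0148). The groups did not overlap in either gene. Pla2g4a, the phospholipase that frees arachidonic acid, fell by 0.54 ± 0.11 (SE, adjusted p = 0.0172), and Alox5ap and Cysltr1 were the others. Alox15 (0.0664) lost the call without knockdown replicate 3, Pla2g4a (0.0569 to 0.101) without control replicate 3 or knockdown replicate 2 or 3 and Alox5ap (0.0512 to 0.0849) without control replicate 3 or knockdown replicate 1 or 3. Of 16 guanylate-binding and immunity-related GTPase genes 0 rose and 3 fell, Gbp2, Gbp2b and Irgm1, with a median of -0.04 over the group.

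Of 25 motile cilia genes 2 rose and 3 fell, with a median of 0.06. Besides Rsph4a, Ccno, an atypical cyclin needed to multiply basal bodies, had levels of 8.13, 8.79 and 9.09 in the control arrays and 7.31, 7.64 and 7.30 in the knockdown arrays (-1.25 ± 0.19 SE, adjusted p = 0.00477), and Capsl fell by 1.25 ± 0.24 (SE, adjusted p = 0.0122). The microtubule gene Tekt1 rose by 0.59 ± 0.15 (SE, adjusted p = 0.0408) and the dynein gene Dnaic2 by 0.40 ± 0.11 (SE, adjusted p = 0.0465). Capsl (0.0531 to 0.0611) lost the call without control replicate 3 or knockdown replicate 3, Tekt1 (0.0567 to 0.165) without any one of the 6 ESC arrays and Dnaic2 (0.0956 to 0.194) without control replicate 2 or 3 or knockdown replicate 1, 2 or 3.

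Of 27 enzymes of glycosaminoglycan and sialic acid synthesis 1 rose and 5 fell, with a median of 0.05. Chst15, a chondroitin sulfotransferase, had levels of 7.71, 7.53 and 8.40 in the control arrays and 6.79, 6.71 and 6.43 in the knockdown arrays (-1.23 ± 0.18 SE, adjusted p = 0.00383). Has2, a hyaluronan synthase, had 7.02, 7.50 and 8.14 in the control arrays and 6.31, 6.20 and 6.22 in the knockdown arrays (-1.31 ± 0.26 SE, adjusted p = 0.0145). The heparan sulfate polymerase gene Ext1 fell by 0.36 ± 0.083 (SE, adjusted p = 0.0264), beside St6gal2 and Hs6st2, and the sialyltransferase gene St8sia6 rose by 0.86 ± 0.17 (SE, adjusted p = 0.0122). Has2 (0.0509 to 0.0697) lost the call without control replicate 3 or knockdown replicate 2 or 3, Ext1 (0.0657 to 0.135) without control replicate 2 or 3 or knockdown replicate 1, 2 or 3 and St8sia6 (0.0625) without knockdown replicate 3.

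Of 7 genes around Lin28 and Trim71, which hold back differentiation through RNA binding, 0 rose and 2 fell, with a median of -0.31. Lin28b, which blocks let-7 maturation, had levels of 7.88, 8.51 and 8.55 in the control arrays and 7.18, 7.42 and 7.44 in the knockdown arrays (-0.96 ± 0.18 SE, adjusted p = 0.0108), and Igf2bp3, an mRNA-binding protein gene, fell by 0.54 ± 0.13 (SE, adjusted p = 0.0315). Lin28b (0.0636) lost the call without control replicate 3 and Igf2bp3 (0.0657 to 0.149) without control replicate 2 or 3 or knockdown replicate 1 or 2.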
